A study of Mus musculus with 4 samples.

Results

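A set of 10 genes of the smooth muscle contractile programme, *Acta2*, *Tagln*, *Myh11*, *Myl9*, *Tpm2*, *Mylk*, *Smtn*, *Cnn1*, *Mustn1* and *Itga8*, were followed across single cells sorted from the mouse aorta for the endothelial surface protein CD31, the product of *Pecam1*. They were chosen by name, 10 of 16408 genes listed in the deposited tables, and all 10 had a row. The cells were 441 wells, of 1536 on 4 plates, with at least 1000 unique molecular identifiers (UMIs, each standing for 1 captured transcript) outside the spike-ins and the mitochondrial genes and with at most 25% of UMIs on mitochondrial genes. Each plate held the cells of 1 mouse. Mice labelled *Epas1* EC-KO (Epas1fl/fl, Cdh5Cre/+; 2 mice) were compared with mice labelled EC-WT (Epas1fl/fl, *Cdh5*+/+; 2 mice). All 4 carried floxed *Epas1*, were of the C57BL/6 strain with littermate controls by the study's methods, and received tamoxifen at 6 weeks of age with analysis 2 weeks later. Cre was a tamoxifen-activated enzyme driven by the endothelial *Cdh5* promoter, so that deletion was aimed at endothelial cells and not at smooth muscle. The sort kept cells with CD31, without the leukocyte protein CD45 and without the dead-cell dye TO-PRO-3, from aortas stripped of their adventitia.

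Vascular smooth muscle contracts when calcium and calmodulin activate myosin light chain kinase (*Mylk*), which phosphorylates the regulatory light chain (*Myl9*) of smooth muscle myosin (*Myh11*) and lets it pull on filaments of smooth muscle actin (*Acta2*). Tropomyosin (*Tpm2*), calponin (*Cnn1*), transgelin (*Tagln*) and smoothelin (*Smtn*) bind those filaments, and integrin alpha 8 (*Itga8*) anchors the muscle cell to matrix. Most of these genes are switched on together by serum response factor and its partner myocardin at a sequence called the CArG box. In the aorta the programme marks the medial muscle layer, whereas *Acta2* and *Tagln* can also appear in other cells, among them endothelial cells that take on mesenchymal features.

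The plates held 157 and 98 kept cells for EC-KO mouse 1 and mouse 2, and 114 and 72 for EC-WT mouse 1 and mouse 2. Their median depth was 5796, 7419, 3779 and 5752.5 UMIs per cell. More kept cells carried the EC-KO label than the EC-WT label, the opposite of the order in the study's methods, so the mice are named here only as labelled in the deposit, and every direction between the groups below would turn if the labels were exchanged. *Epas1* itself did not check the labels, since the sources used here do not give which part of it is deleted or whether 3′ tags cover that part. It had 2930 and 3148 counts for each 1000000 UMIs (CPM) in EC-KO and 3324 and 2351 in EC-WT. All plates used the same 384 cell barcodes by design, which ties no cell of one plate to a cell of another. The labelled cell type held for most cells, since *Pecam1* had a UMI in 432 of 441 and the leukocyte gene *Ptprc* had 1 UMI in all kept cells together.

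Of the 10 genes, 8 had a promoter sequence in the RefSeq table (build GRCm38.p6), and 2 of these, *Acta2* and *Myl9*, had a CArG box in the 250 bases before the start that this table gives. A box was counted when at least 5 of its 6 central bases were A or T, and the motif reads the same on both strands. Among 32851 promoters in that table, 8.59% held at least 1 such box and 0.67% held at least 2, as both of these do. They are shown because the CArG box is the motif named above, although 6 of the 8 promoters held none in this window. Each line gives 30 bases read 5′ to 3′ on the gene's own strand, with the box in capitals. For *Acta2* (chromosome 19, minus strand) the first window is chr19:34255438-34255467, its box beginning 84 bases before the start, and the second is chr19:34255388-34255417, its box beginning 34 bases before. For *Myl9* (chromosome 2, plus strand) the windows are chr2:156775293-156775322 and chr2:156775355-156775384, with boxes 161 and 99 bases before the start. These distances are from the RefSeq start. GENCODE M21 begins *Acta2* 217 bases farther upstream, so that both of its boxes lie inside the gene there, and *Myl9* 44 bases farther upstream, with both boxes still before it.
Acta2 distal box: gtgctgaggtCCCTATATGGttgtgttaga
Acta2 proximal box: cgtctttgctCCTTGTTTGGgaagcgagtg
Myl9 distal box: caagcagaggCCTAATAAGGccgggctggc
Myl9 proximal box: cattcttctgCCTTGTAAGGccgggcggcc
Of these boxes, the distal one of *Myl9* had all 6 central bases A or T, which 1.47% of promoters held. *Tpm2*, *Mylk*, *Smtn*, *Cnn1*, *Mustn1* and *Itga8* had no match in this window, and *Tagln* and *Myh11* had no entry. The windows of *Mylk* and *Smtn* lie wholly inside those genes in GENCODE M21, so the bases before the start given there were not searched. A match describes letters and not a bound site.

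Cells fell into a small group rich in the whole programme and a large remainder with few or no transcripts of it. A cell was called rich when at least 5 of the 10 genes had a UMI and together they took at least 1% of its UMIs. This held for 20 of 441 cells (4.54%, exact binomial interval 2.79% to 6.92%, counting error only), with 11, 4, 3 and 2 cells in EC-KO mouse 1, EC-KO mouse 2, EC-WT mouse 1 and EC-WT mouse 2. A further 181 cells had *Acta2* with at least 1 other gene of the list but were not rich, and 63 cells (14.3%) had *Acta2* alone. There were 92 cells with other listed genes and no *Acta2*, and 85 with none of the 10. Just inside the limits lay a cell of EC-KO mouse 1 with 1.19% of UMIs on the list. Just outside lay a cell of EC-KO mouse 2 with 3.07% but only 4 genes detected, followed by cells at 0.674%, 0.622% and 0.597%.

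**Figure D1:**
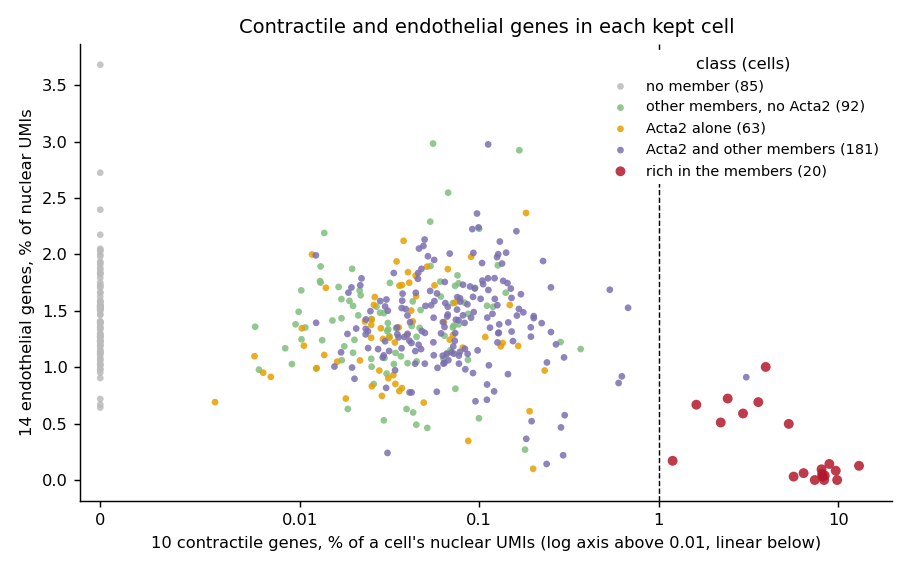
Each point is 1 of 441 kept cells, placed by the percent of its UMIs on the 10 contractile genes (x axis, logarithmic above 0.01 and linear below) and on 14 endothelial genes (y axis), and coloured by class; the dashed line marks 1%. The 20 rich cells lie to the right at 1.19% to 13.0%, below most other cells on the y axis.

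Rich cells carried nearly the full set. All 10 genes had a UMI in 14 of the 20 cells, and *Acta2*, *Tagln*, *Myl9*, *Tpm2* and *Mylk* had one in all 20. Levels are given as CPM of the summed UMIs, in the order EC-KO mouse 1, EC-KO mouse 2, EC-WT mouse 1, EC-WT mouse 2, and since these genes define the class the values are a description with no test. UMIs were counted from the 3′ end, where 1 UMI stands for 1 transcript of any length. *Acta2*, the actin of the contractile filament, stood at 25092, 24344, 23115 and 17799. It took 43.8% of the listed genes' UMIs in rich cells. Its level was close in the 4 mice, though higher in both EC-KO mice than in either EC-WT mouse. *Tagln*, which cross-links actin, stood at 13723, 10071, 19307 and 5146. It was highest in EC-WT mouse 1 and lowest in EC-WT mouse 2, so the EC-WT mice bracketed the EC-KO mice. *Myh11*, the myosin heavy chain found almost only in smooth muscle, stood at 6173, 5521, 6304 and 2664, again with the EC-WT mice at both ends. *Myl9*, its light chain, stood at 4194, 4064, 6567 and 3148. *Mylk*, the kinase that acts on *Myl9*, stood at 2254, 2059, 1182 and 1029, higher in both EC-KO mice than in either EC-WT mouse. *Tpm2*, which runs along the actin filament, stood at 2692, 2998, 5648 and 787. *Cnn1*, an inhibitor of the myosin motor, stood at 1390, 1077, 919 and 787. *Cnn1* was likewise higher in both EC-KO mice, by a small margin. *Smtn*, an actin-binding protein of contractile cells, stood at 1164, 940, 1839 and 666. *Mustn1*, a small protein first described in the musculoskeletal system, stood at 751, 834, 2627 and 242. *Itga8* stood at 2254, 1573, 394 and 1271, also higher in both EC-KO mice, with 3 UMIs in EC-WT mouse 1. How many of all genes had this order of the mice in rich cells was not counted. For *Acta2*, *Mylk*, *Cnn1* and *Itga8* the order is therefore given only as a description. With 3 and 2 rich cells in the EC-WT mice, 1 cell could set a mouse's value: the cell with the most listed UMIs held 414 of 517 listed UMIs in rich cells of EC-WT mouse 1 and 449 of 554 in EC-WT mouse 2.

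**Figure D2:**
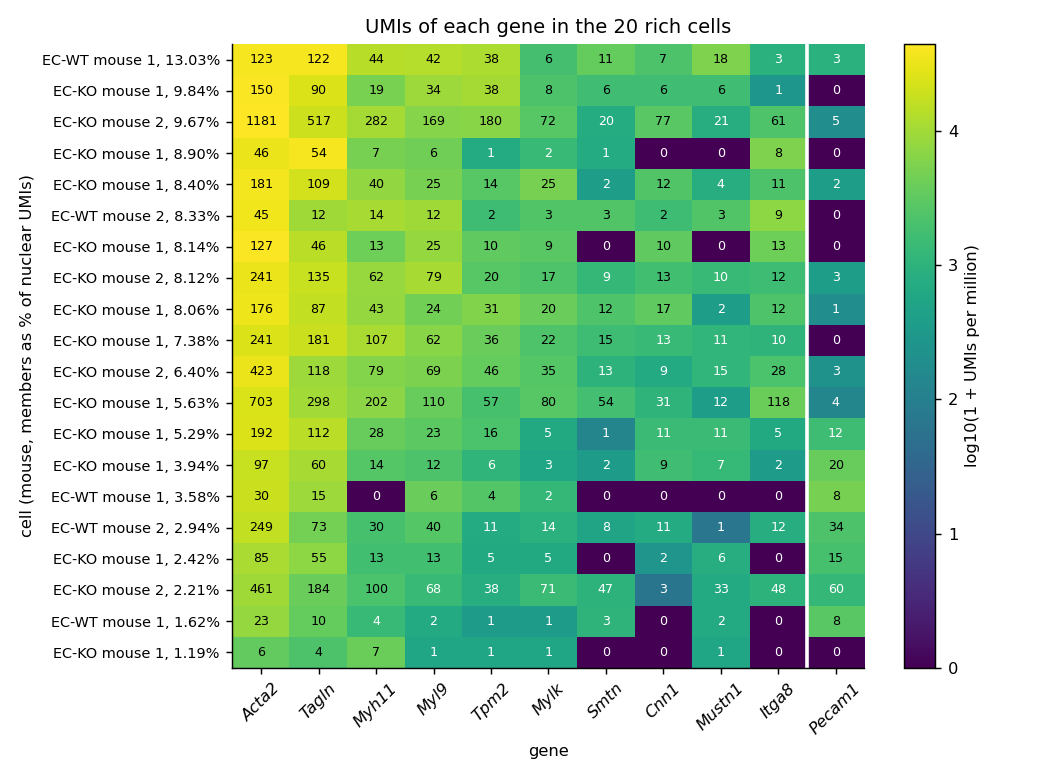
Rows are the 20 rich cells, ordered by the percent of UMIs on the 10 genes; columns are the genes, with *Pecam1* to the right of the white line; printed numbers are UMIs and colour is log10(1 + CPM). *Acta2* or *Tagln* has the most UMIs in every row but the last, and *Pecam1* rises to 60 UMIs in a row at 2.21%.

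*Pecam1* divided the rich cells. It had a UMI in 14 of 20 rich cells (70.0%) against 418 of 421 other cells (99.3%), and in 21.5% of 480 wells of plate rows L to P, which held no kept cell. The mean difference within mice was -23.3 percentage points (-43.4, 0, 0 and -50 in the order above; exact sign-flip permutation test, 2-sided, P=0.5). With every cell thinned to 1000 UMIs it was -70.4 points, lower in each of the 4 (same exact test, P=0.13, which is the lowest it can give). In 5 of the 14 rich cells with *Pecam1* each of its UMIs had been read only once, and without such values, an alternative chosen after the data were seen, the difference was -43.7 points, lower in each of the 4 (same exact test, P=0.13). With at least 2000 UMIs per cell it was -8.33. Its level fell in rich cells, from 4703, 6688, 6087 and 4673 CPM in other cells to 676, 750, 2495 and 2058 (log2 fold change -2.53, SE 0.51, adjusted P=2.56e-05, edgeR quasi-likelihood test blocked by mouse). No rich cell had *Ptprc*, and 1 of 10 immune genes was tested and not called.

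The 20 cells covered a range from nearly free of endothelial transcripts to mixed. At 5% of UMIs on the list, a split set after the values were seen, 13 cells lay above (5.29% to 13.0%) and 7 below (1.19% to 3.94%). *Pecam1* had 33 UMIs in the 13 upper cells, found in 8 of them (283 CPM), and the 14 endothelial genes summed to 814 CPM. In the 7 lower cells *Pecam1* had 145 UMIs, found in 6 (1767 CPM), and the endothelial genes summed to 5788. Cells outside the rich class had 5505 and 13688 CPM. The stretches overlapped by cell, with endothelial genes at 0 to 4977 CPM in upper cells and 1705 to 10028 in lower cells. The upper cell nearest the split, at 5.29%, held 12 of the 33 *Pecam1* UMIs, and the lowest rich cell, at 1.19%, had 0. A single lower cell, of EC-KO mouse 2 at 2.21%, weighed most in the lower sums. It held 60 of the 145 *Pecam1* UMIs and 47621 of the 82071 UMIs of the lower cells. Of the 13 upper cells 11 came from EC-KO mice and 2 from EC-WT mice, and of the 7 lower cells 4 and 3. On the plate, 3 of the 7 lower cells lay in one of the 8 wells around an upper cell, all in EC-KO mice. By the same measure 7 of 20 rich cells lay near another rich cell, 5 in EC-KO and 2 in EC-WT mice. No doublet caller was run, and the part of paired cells or of well-to-well transfer in the lower cells was not tested.

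Summed over the 10 genes, rich cells held most of the listed transcripts of kept cells, but not for every gene in every mouse. They held 88.9%, 86.9%, 76.7% and 72.7% of the listed UMIs of kept cells in the 4 mice. By gene and with the 4 mice pooled, the part of all plate UMIs that lay in kept cells outside the rich class was lowest for *Itga8* (2.70%), *Tpm2* (3.45%) and *Myl9* (4.47%). It was 7.60% for *Cnn1*, 8.45% for *Myh11*, 11.0% for *Tagln* and 14.8% for *Acta2*. It was highest for *Mylk* (24.5%), *Smtn* (35.8%) and *Mustn1* (40.1%). The EC-KO mice held most of the UMIs in these pooled values. In EC-WT mouse 1 and EC-WT mouse 2, rich cells held 18% and 50% of the plate's *Mylk* UMIs, 34.1% and 28.9% of *Smtn* and 42.6% and 10.5% of *Mustn1*. The part outside the rich class for *Tpm2* was 13.7% in EC-WT mouse 1 and 0% in EC-WT mouse 2.

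Outside the 10 genes, rich cells differed from the other cells of the same mouse in many genes of muscle and of endothelium. Of 6729 genes tested, 694 (10.3%) passed an adjusted P of 0.05, 306 higher (4.55%) and 388 lower (5.77%). DESeq2 called 556, with 316 higher and 240 lower, so the calls leaned lower in edgeR and higher in DESeq2. The median of all genes was -0.33 on the log2 scale, and the number of calls depended on single mice and on deep cells: without EC-KO mouse 1 it was 249, without EC-KO mouse 2 it was 272, and without cells over 3 times their plate's median UMIs it was 414.

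Genes of the endothelial list were lower together. Of 14 genes 11 were tested, 0 were higher and 9 lower, with a list median of -2.53. *Vwf*, the clotting factor stored in endothelial granules, fell from 1803 to 161 CPM (log2 fold change -3.71, SE 0.56, adjusted P=3.94e-09). *Egfl7*, a secreted endothelial protein, fell from 770 to 106 (-3.26, SE 0.60), and *Tek*, the angiopoietin receptor, from 778 to 111 (-2.88, SE 0.57). *Cldn5* (-0.94, SE 0.52, adjusted P=0.309) and *Esam* (-1.05, SE 0.50, adjusted P=0.201), both junction genes, did not pass.

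Other genes of contraction were higher. Of 22 listed, 17 were tested, 13 were higher and 0 lower, with a median of 2.22. *Ramp1*, a receptor partner for vasodilator peptides, rose from 1.01 to 267 CPM (log2 fold change 7.36, SE 0.81, adjusted P=2.27e-17). *Pln*, which restrains the calcium pump of the sarcoplasmic reticulum, rose from 1.69 to 518 (7.23, SE 0.82), and *Lmod1*, a nucleator of actin filaments, from 3.38 to 523 (6.87, SE 0.69). *Ppp1r14a*, which inhibits myosin phosphatase, rose from 12.9 to 478 (5.16, SE 0.57). *Kcnmb1*, the muscle subunit of the BK potassium channel, rose from 9.13 to 398 (5.03, SE 0.62). Among those that did not pass were *Ppp1r12a* (1.37), *Sncg* (1.25) and *Pdlim7* (0.66).

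Regulators of the programme were partly higher. Of 12 listed genes 8 were tested, 4 were higher and 0 lower, with a median of 1.86. *Myocd*, the partner of serum response factor, had 20 UMIs in 7 rich cells and 1 UMI in the other 421 cells (log2 fold change 7.01, SE 1.21, adjusted P=4.75e-07). *Notch3*, the Notch receptor of mural cells, and its target *Heyl* had 62 and 82 UMIs in rich cells against 9 and 23 in the others (6.08, SE 0.77 and 5.02, SE 0.69). *Mef2c* rose as well (2.44, SE 0.56). *Srf* itself, present in both groups, did not pass (1.29, SE 0.68, adjusted P=0.283). Neither did *Mkl2* (-1.31, SE 0.59), *Hand2* (0.31, SE 1.09) and *Tbx18* (-0.09, SE 0.75).

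Markers of other mural and stromal cells moved in both directions. The fibroblast list summed to 12220, 4265, 1051 and 8536 CPM in the rich cells of the 4 mice. In EC-KO mouse 1 a single cell held 729 UMIs of this list, and no other rich cell of that mouse held more than 92. All 3 tested pericyte genes, *Cspg4* (log2 fold change 6.68, SE 0.68), *Mcam* (2.54, SE 0.51) and *Pdgfrb* (2.30, SE 0.59), were higher. *Rgs5*, *Kcnj8* and *Higd1b*, which define pericytes more narrowly, had 1 UMI each in rich cells and *Vtn* had 0. The remaining gene of this list, *Abcc9*, was not among those tested. It had 7 UMIs in 5 rich cells and 4 UMIs in all other kept cells. Of 6 fibroblast genes tested, the collagens *Col1a1* (4.59, SE 0.58) and *Col3a1* (3.26, SE 0.56) were higher. *Dcn* (-2.77, SE 0.73) and *Lum* (-4.05, SE 1.26), small proteoglycans that mark fibroblasts, were lower, with 10 and 1 UMIs in rich cells, and these 2 calls were lost in DESeq2. Of 9 matrix and modulation genes tested, *Ogn* (6.75, SE 0.60) and *Postn* (6.28, SE 0.65) were higher and the adhesion molecule *Vcam1* was lower (-2.82, SE 0.58). *Mgp*, *Eln*, *Bgn* and *Fbln5* lay between -0.91 and 0.07 and did not pass. Of 6 factors of endothelial to mesenchymal transition tested, *Tgfb2* was higher (1.85, SE 0.64) and *Twist1* lower (-1.95, SE 0.59), and the list median was 0.35.

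The non-muscle relatives of the contractile genes did not move as a block. Of 14 tested, 3 were higher and 1 lower, with a median of -0.23. *Tpm1*, which also has smooth muscle isoforms, rose from 235 to 2219 CPM (log2 fold change 2.82, SE 0.49, adjusted P=6.15e-07), and *Cnn2*, a calponin of many cell types, from 44.6 to 423 (2.80, SE 0.56). *Myh10*, a non-muscle myosin, was higher (1.68, SE 0.55, adjusted P=0.0285), a call that DESeq2 did not make (adjusted P=0.089). *Tpm3* fell from 503 to 131 (-2.30, SE 0.56). *Actb*, the cytoplasmic actin, stood at 1689 in other cells and 6074 in rich cells (1.34, SE 0.49, adjusted P=0.058), and DESeq2 called it (adjusted P=0.000178). *Tagln2* was at -0.15 (SE 0.48) in edgeR and at 0.03 in DESeq2.

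**Figure D3:**
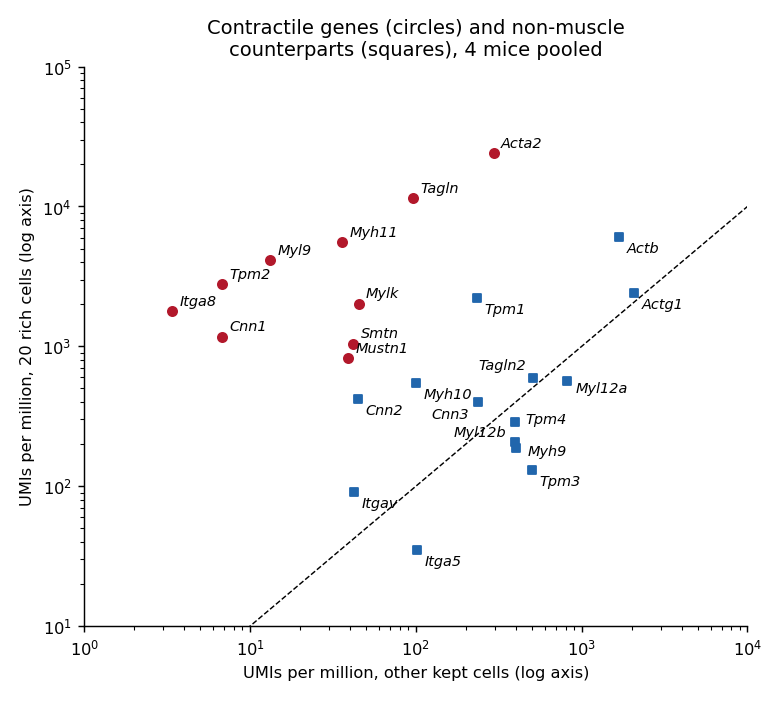
Each of the 10 contractile genes (circles) and 14 non-muscle relatives (squares) is placed by its CPM in the 421 other kept cells (x axis, logarithmic) and in the 20 rich cells (y axis, logarithmic), 4 mice pooled; the dashed line marks equal levels. All 10 circles lie far above the line, while the squares lie on both sides of it.

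Among the remaining genes, those with the largest fitted rise were *Igfbp2*, *Susd5*, *Mir143hg*, *Rcan2*, *Olfr558*, *Sgca*, *Aoc3*, *E030013I19Rik*, *Kcnab1* and *Mark1*. Their fitted changes of 8.08 to 8.78 depend on a prior count, and their UMIs show the contrast directly. *Susd5* had 101 UMIs in 14 rich cells and 2 UMIs elsewhere, *Rcan2*, a calcineurin regulator, had 94 and 3, and *Aoc3*, an amine oxidase of vascular smooth muscle, had 169 and 5. *Igfbp2*, *Olfr558*, *Sgca* and *Mark1* had 40, 24, 23 and 20 UMIs in rich cells and 0 in the other 421, where 3 UMIs would be 1.01 CPM. *Mir143hg*, the host transcript of a smooth muscle microRNA, had 53 and 1. *E030013I19Rik* (76 and 2) overlaps *Itga8* on the opposite strand, and whether the counting used strand is not given in the sources used here. The largest falls were *Fndc1*, *Pla2g5*, *Col23a1*, *Tal1* and *St3gal4*, each with 0 UMIs in rich cells (3 UMIs would be 15.1 CPM) against 585, 370, 296, 303 and 256 elsewhere.

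The genes whose level across all 441 cells followed the mean of the 10 most closely were *Nov* (Pearson r 0.81), *Serpine2* (0.78), *Aoc3* (0.77), *Lmod1* (0.77), *Ogn* (0.76), *Cspg4* (0.76), *Synpo2* (0.75) and *Susd5* (0.73), of 5271 with at least 100 UMIs. Between 70.6% and 98.1% of their UMIs lay in the 20 rich cells, so these r values describe the rich class. Within the list, each gene set against the mean of the other 9 gave r from 0.55 (*Mustn1*) and 0.57 (*Smtn*) to 0.89 (*Tpm2*) and 0.91 (*Myl9*), the cells sharing libraries and differing in depth.

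Outside the rich class, *Acta2* was the gene most often found, and it differed widely between mice. It had a UMI in 65.1%, 94.7%, 22.5% and 50% of these cells, at 270, 636, 63.9 and 147 CPM. EC-KO mouse 2 was highest and EC-WT mouse 1 lowest, and both EC-KO mice lay above both EC-WT mice. *Tagln* was found in 28.8%, 44.7%, 9.01% and 18.6% at 157, 107, 18.7 and 61.9 CPM, also without overlap of the groups. In EC-KO mouse 1, 3 cells with 0.5% or more of UMIs on the list held 67 of its 158 *Tagln* UMIs, and in EC-WT mouse 2 a single cell held 15 of 34. Without such cells at 0.5% or more, an alternative chosen after the data were seen, the EC-KO mice stood at 92.1 and 92.8 CPM. *Myh11* stood at 29.7, 72.7, 10.9 and 25.5 CPM, with EC-KO mouse 1 close to EC-WT mouse 2. *Mylk* (41.6, 52.9, 59.2 and 25.5), *Smtn* (30.7, 58.2, 35.9 and 47.3) and *Mustn1* (34.7, 33.1, 39.0 and 56.4) stayed at similar low levels in all 4 mice, with no order by genotype for *Mylk* and *Smtn* and both EC-WT mice above both EC-KO mice for *Mustn1*. *Myl9* (11.9, 26.4, 6.24 and 5.46), *Cnn1* (8.92, 9.25, 0 and 7.28), *Tpm2* (3.96, 11.9, 10.9 and 0) and *Itga8* (4.96, 5.29, 0 and 1.82) were scarcer. In EC-WT mouse 1, 3 UMIs would be 4.68 CPM, and in EC-WT mouse 2 they would be 5.46. Of the 421 cells 85 had none of the 10 genes, 124 had 1, 101 had 2, 63 had 3, 32 had 4, 9 had 5 and 7 had 6.

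Most of these cells were endothelial by their transcripts. The 14 endothelial genes took between 0.0997% and 3.68% of a cell's UMIs, with a median of 1.38%. In 14 of the 421 cells, 9, 4, 1 and 0 in the 4 mice, they took less than the 0.579% of the 7 lower rich cells as a sum. *Pecam1* was found in 242 of the 244 cells with *Acta2*, in 63 of 64 with *Mustn1* and in every cell with one of the other 8 genes. Cells without *Acta2* had it as often, 176 of 177, and so did all of these cells together, 418 of 421. Over all kept cells, *Acta2* and *Pecam1* were found together in 99, 93, 28 and 36 cells (63.1%, 94.9%, 24.6% and 50%), and *Acta2* without *Pecam1* in 7, 0, 0 and 1. The endothelial genes summed to 12467 CPM in *Acta2*-alone cells, 13748 in cells with *Acta2* and others, 13801 in cells with other genes only and 14550 in cells with none of the 10. The fibroblast list summed to 1542 and 1808 CPM in the first pair of classes and to 927 and 933 in the second, with the 4 mice pooled. In cells with *Acta2* and others it stood at 3080, 1296, 904 and 994 in the 4 mice and in *Acta2*-alone cells at 2330, 809, 336 and 1240, highest in EC-KO mouse 1 in both. In cells with other genes only it stood at 916, 1078, 748 and 1178, and EC-KO mouse 1 was not highest. In cells with none of the 10 it stood at 1642, 1269 (1 cell), 678 and 889, with EC-KO mouse 1 again highest. The pericyte list stayed between 91.4 and 154 CPM in these 4 classes and the immune list between 13.4 and 19.9.

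A cell with *Acta2* had somewhat more often *Tagln* as well, but within the spread between mice. *Tagln* was found in 30.5%, 44.9%, 28% and 17.1% of other cells with *Acta2* and in 25.5%, 40%, 3.49% and 20% of those without. The mean difference was 7.91 percentage points (SD 11.7, n = 4 mice, higher in 3 of 4; exact sign-flip permutation test, 2-sided, P=0.25). Without EC-WT mouse 1 it was 2.37. It moved with the limit on depth, at 0.86 with at least 2000 UMIs per cell and 13.8 with at least 500, where all 4 mice were positive (same exact test, P=0.13). For *Myh11*, *Myl9*, *Tpm2*, *Smtn*, *Cnn1* and *Mustn1* the mean differences were 9.99, 6.03, 3.13, 5.60, 5.20 and 5.64 points, and for *Mylk* and *Itga8* -2.42 and 0.22. With every cell thinned to 1000 UMIs the first 6 became -1.05, 1.54, 2.11, 2.02, 1.35 and -4.07, so *Myh11* and *Mustn1* turned. The *Myh11* value rested on EC-KO mouse 2, where 39.3% of cells with *Acta2* had it and none of the 5 without. In the other mice it was 13.7% against 21.6%, 12% against 3.49% and 14.3% in both. Over these 421 cells the correlation of *Acta2* with *Tagln* was 0.32, with *Cnn1* 0.24, with *Myh11* 0.24, with *Mylk* -0.03 and with *Pecam1* -0.05, weak values in sparse counts. Of genes outside the list the highest were *Atp1b2* (0.25), *Pappa2* (0.24), *Aoc3* (0.21), *Dmpk* (0.20) and *Slmap* (0.20), of which *Atp1b2*, *Pappa2* and *Aoc3* had 8, 5 and 5 UMIs there.

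The reads behind an *Acta2* UMI differed between rich and other cells, which was not so for every gene. In rich cells an *Acta2* UMI was read 29.4, 49.7, 39.2 and 54.0 times on average in the 4 mice, and in other cells 15.4, 6.32, 19.0 and 30.3 times. In 143 of 244 other cells with *Acta2* (58.6%), each of its UMIs had been read only once. For *Myh11* such cells were 77.3% of those with the gene, for *Cnn1* 70.6%, for *Itga8* 70%, for *Myl9* 54.8% and for *Tpm2* 52.6%. For *Smtn* they were 35.8%, for *Tagln* 35.5%, for *Mylk* 23.5% and for *Mustn1* 21.9%. The same was true of 1.2% of cells for *Pecam1*, 3.2% for *Actb* and 2.8% for *Vwf*, genes with more UMIs per cell. Among cells with a single UMI of the gene, 80 of 99 (80.8%) had 1 read for *Acta2*, against 11 of 26 for *Actb*, 10 of 27 for *Vwf*, 30 of 67 for *Tagln* and 15 of 32 for *Mylk*. The share was as high for *Myh11* (44 of 52) and, in few cells, for *Pecam1* (5 of 6). In between lay *Cnn1* (10 of 14), *Itga8* (7 of 10), *Myl9* (15 of 25) and *Tpm2* (10 of 18). The contrast was wide in EC-KO mouse 2, where *Myh11* had 1.44 reads per UMI outside the rich class and 38.3 inside it, and *Cnn1* 1.14 and 20.8. *Smtn* (11.9 and 13.1) and *Mylk* (13.8 and 19.6) differed little in that mouse. *Tagln* had more reads per UMI outside the rich class in both EC-WT mice (31.9 against 21.7, and 28 against 21.4) and fewer in both EC-KO mice (14.7 against 16.7, and 13.4 against 31.6). Without values of 1 read per UMI, an alternative chosen after the data were seen, *Acta2* was found in 25.3%, 43.6%, 9.01% and 18.6% of other cells, with the mice in the same order. Cells in which each *Acta2* UMI had on average 5 or more reads made up 19.2%, 11.7%, 5.41% and 14.3%, an order in which the genotypes overlapped.

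**Figure D4:**
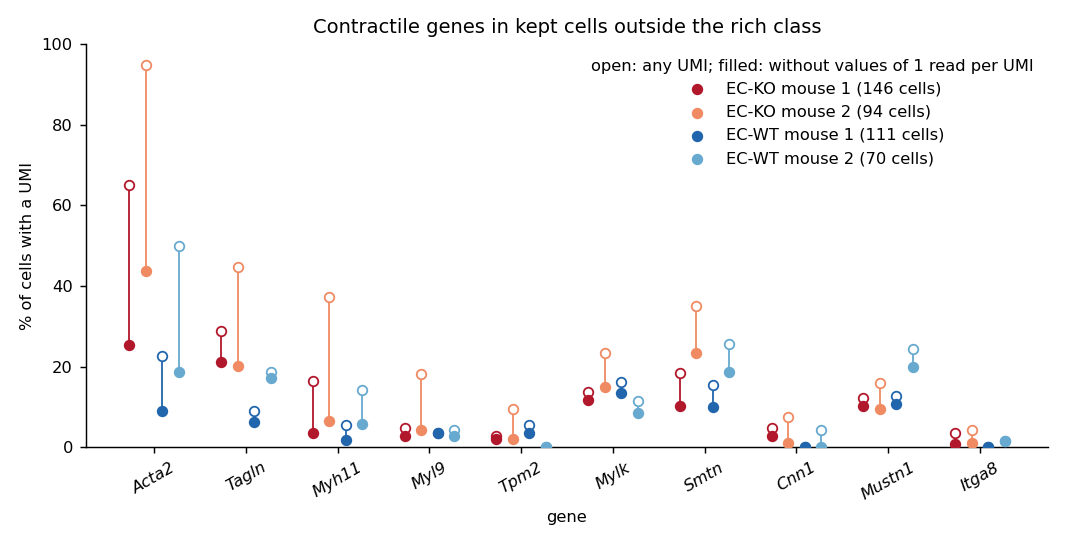
For each gene, the percent of kept cells outside the rich class with a UMI (open circles) and the same without values of 1 read per UMI (filled circles) are shown for the 4 mice. The gap is widest for *Acta2* in EC-KO mouse 2, and for *Smtn* each filled point lies below the open one, in EC-KO mouse 2 at 23.4% against 35.1%.

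Cells with *Acta2* alone had little of it. They numbered 32, 11, 7 and 13 (20.4%, 11.2%, 6.14% and 18.1% of kept cells), with 128 *Acta2* UMIs in all 63 cells and at most 9 in 1 cell. Of the 63 cells, 34 had a single *Acta2* UMI, 40 had 1 read per UMI and 15 had 5 or more reads per UMI. Their median depth was 4444 UMIs, against 7812 in cells with *Acta2* and others and 2703 in cells with none of the 10. The class also depended on depth by its definition: after thinning to 1000 UMIs the numbers were 23, 39, 8 and 9, while all 20 rich cells stayed rich. Compared with cells that had none of the 10 genes, in the same mice, 0 of 1778 genes outside the list (0.0%) passed an adjusted P of 0.05 in edgeR, and 0 in DESeq2 (43 and 36 at an unadjusted P under 0.05). EC-KO mouse 2 entered that fit with a single cell without the genes.

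*Acta2* was also present in wells that held no kept cell. Rows L to P, 120 wells on each plate, held no kept cell on any plate, and had 28, 59, 3 and 16 *Acta2* UMIs, or 0.233, 0.492, 0.025 and 0.133 per well. The kept cells outside the rich class had 1.86, 5.12, 0.369 and 1.16 per cell. The mice stood in the same order in both. For each *Pecam1* UMI these wells had 1.04, 1.18, 0.107 and 0.356 *Acta2* UMIs, against 0.0573, 0.0951, 0.0105 and 0.0315 in kept cells outside the rich class and 0.474, 0.543, 0.0553 and 0.144 in all kept cells. Other kept cells in the 8 wells around a rich cell had 281, 606, 0 and 93.5 *Acta2* CPM, and those elsewhere 265, 638, 64.5 and 155. The first set counted 42, 6, 2 and 6 cells. The part of free RNA or of exchanged barcodes in the *Acta2* of other cells was not tested.

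Over all kept cells together, 7 of the 10 genes were called higher in the mice labelled EC-KO (6 in DESeq2). *Acta2* had 2090 and 3275 CPM in EC-KO (mean 2682 ± 837 SD, n = 2) and 334 and 662 in EC-WT (498 ± 232), a log2 fold change of 2.47 (SE 0.31, adjusted P=0.00938, edgeR quasi-likelihood test). *Tagln* had 1152 and 1216 against 245 and 210 (2.41, SE 0.19, adjusted P=0.000394). *Myh11* had 480 and 679 against 84.7 and 102 (2.66, SE 0.23, adjusted P=0.000442). The myosin motor, its actin filament and a filament cross-linker differed by similar factors. *Itga8* (3.10, SE 0.47), *Cnn1* (2.61, SE 0.36), *Myl9* (2.17, SE 0.23) and *Mylk* (1.93, SE 0.24) also passed, and *Tpm2* (2.43, SE 0.40, adjusted P=0.0537), *Smtn* (1.17, SE 0.25, adjusted P=0.152) and *Mustn1* (0.70, SE 0.26, adjusted P=0.641) did not. Of 8385 genes 10 were called (0.119%), all higher in EC-KO, and 7 of these were on the list. The other 3 were *Aoc3*, *Ogn* and *Igfbp7* (4.74, 2.47 and 1.66). Both EC-KO mice lay above both EC-WT mice for 10 of 10 listed genes, as they did for 18.2% of all genes. The list median was 2.42, and that of all genes -0.0053. The rise was smaller in related lists. Of the other genes of contraction 17 were tested and 0 called, with a median of 0.49. Of the regulators 8 were tested and 0 called, with a median of 0.16. *Pecam1* (0.0019, SE 0.23) and *Epas1* (0.13, SE 0.22) were not called. Among markers of other cells, the 6 fibroblast genes tested had a median of 1.80 with 0 called, and 1.59 outside the rich class, and their part in the result was not tested. These sums join the number of rich cells with the UMIs caught in each, which were 7261 and 23682 per rich cell in EC-KO and 2538 and 8259 in EC-WT, with 182, 577, 58.7 and 147 of *Acta2*. P values reflect the spread between 2 mice a group.

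**Figure D5:**
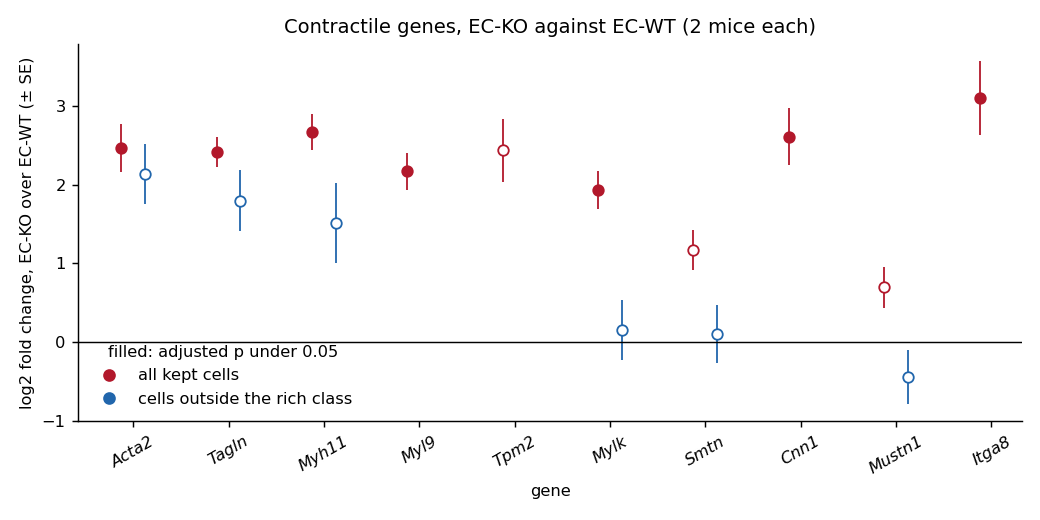
Log2 fold changes of EC-KO over EC-WT mice (2 each) with their standard errors, over all kept cells (red) and over cells outside the rich class (blue); filled points passed an adjusted P of 0.05. The 10 red points lie above 0 and 7 are filled, and the 6 genes with enough UMIs outside the rich class have open blue points from -0.44 to 2.14.

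The calls over all kept cells, and much of the size of the difference, rested on few cells. A single cell of EC-KO mouse 1 and 2 cells of EC-KO mouse 2 were both rich and over 3 times their plate's median depth, and held 31.0% and 62.3% of those mice's listed UMIs, while no EC-WT cell met both terms. Without cells over that depth, 0 of 10 listed genes were called and their median was 1.10. Leaving out a whole mouse moved the size less. The list median was 2.09 without EC-KO mouse 2, and 2.13 to 2.56 without any one of the other mice. The share of rich cells was 7.01% and 4.08% in EC-KO and 2.63% and 2.78% in EC-WT, a difference of 2.84 percentage points, with both EC-KO mice above both EC-WT mice (exact permutation test, 2-sided, P=0.33, the smallest that 2 against 2 allows). Without cells over 3 times the median depth the shares were 6.67% and 2.13% against 2.97% and 3.08%, so that EC-KO mouse 2 lay below both EC-WT mice and the difference was 1.37 points. Without EC-KO mouse 1 it was 1.38. The exact binomial intervals of the 4 mice (3.55% to 12.2%, 1.12% to 10.1%, 0.55% to 7.50% and 0.34% to 9.68%) overlapped. For the pair of mice sequenced on a shared flow cell, EC-KO mouse 2 and EC-WT mouse 1, the difference was 1.45 points. The share of *Acta2*-alone cells differed by 3.71 points, with overlap of the groups (exact permutation test, 2-sided, P=0.667). With every cell thinned to 1000 UMIs the shares were 14.6% and 39.8% in EC-KO and 7.02% and 12.5% in EC-WT, without overlap. The difference turned negative when EC-KO mouse 1 or EC-WT mouse 1 was left out.

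Outside the rich class, 6 of the 10 genes had enough UMIs to be tested. *Acta2* differed by 2.14 (SE 0.38, adjusted P=0.229), *Tagln* by 1.80 (SE 0.38, adjusted P=0.481; 1.27 without the cells at 0.5% or more) and *Myh11* by 1.51 (SE 0.50, adjusted P=0.843). Both EC-KO mice lay above both EC-WT mice for these 3 of 6 genes, against 17.6% of 8132 genes tested. *Mylk* (0.15, SE 0.38), *Smtn* (0.11, SE 0.37) and *Mustn1* (-0.44, SE 0.34) were near 0. No gene of 8132 (0.0%) passed an adjusted P of 0.05 in edgeR or in DESeq2, with 455 and 116 at an unadjusted P under 0.05. *Acta2* and *Tagln* passed under several alternatives, among them without the deepest cells (adjusted P of 0.0211 for each).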

How the data were processed

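SORT-seq libraries of 4 mice, 1 plate of 384 wells each, were analysed. The authors deposited, per plate, UMI counts, read counts with duplicates, and expected counts of transcripts (UMI counts corrected for 4096 identifiers, a formula that gave the deposited values to within 1e-09), without normalization. The submitters' notes name BWA 0.7.15 and Seurat, and builds GRCm38 and mm10. Plates held 910699 to 1475546 UMIs at 10.5 to 22.1 reads per UMI, 17.9% to 25.8% of them ERCC spike-ins, which were left out. Positions and overlaps came from GENCODE M21 (GRCm38). *Tagln*, *Mylk*, *Smtn* and *Itga8* overlap other genes there.

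UMIs were summed per mouse and class, and tested with edgeR 4.0.16 (TMM, filterByExpr, quasi-likelihood, Benjamini-Hochberg over all genes) in R 4.3.3, with DESeq2 1.42.0 as the alternative, after tests on simulated data. Rich cells against others, and *Acta2* alone against none, were blocked by mouse, and EC-KO against EC-WT was not. Single values were compared by exact permutation tests in Python 3.11.15 (scipy 1.17.1). Intervals are exact binomial (95%) and, like the floor of 3 UMIs, cover counting error only. Alternatives changed the cell limits, the rich rule, the count type, the filter, the block, thinning and each mouse.

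Named were the 10 genes, listed markers, up to 10 rising and 5 falling genes with the same sign in all mice with UMIs, and the 8 and 5 genes most like the list and *Acta2*. Members and lists were chosen with earlier results of these data known. One gene of a marker list is not reported here.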

Additional observations from a re-analysis of the deposited data

Results flagged for a closer look

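Wells of rows L to P entered no comparison and held no kept cell on any plate, yet they held contractile transcripts. There were 106 UMIs of *Acta2* in 77 of 480 wells, 12 of *Tagln* in 11 wells and 14 of *Myh11*, above the 3 UMIs that a count of 0 allows. *Acta2* was spread as 28 and 59 UMIs in the EC-KO mice and 3 and 16 in the EC-WT mice. *Tagln* was spread as 8 and 3, and 0 and 1. Per *Tagln* UMI there were 1.83, 2.42, 1.20 and 3.46 *Acta2* UMIs in the rich cells of EC-KO mouse 1, EC-KO mouse 2, EC-WT mouse 1 and EC-WT mouse 2. In other kept cells there were 1.72, 5.94, 3.42 and 2.38, lower than in rich cells in EC-KO mouse 1 and EC-WT mouse 2, and in all wells not kept 5.08, 12.6, 4 and 31, the last with 1 *Tagln* UMI. Their source was not tested.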

How the results depend on the processing

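The members' fold changes between EC-KO and EC-WT and that of *Pecam1* in rich cells were recomputed in 286 settings over 17 results: 236 kept their direction and side of the threshold, 27 passed it newly, 16 no longer passed and 7 turned. Leaving out 1 mouse gave 249 to 683 genes called in rich cells, 4 to 129 over all kept cells and 18 to 73 outside the rich class, and called members of 2 to 9 and 1 to 3. In those fits the lone mouse of a group is assumed to vary like the others. Over all kept cells, genes called were 22 with at least 2000 UMIs per cell, 17 without the mitochondrial limit, 115 without the filter on low counts, and 21 without values of 1 read per UMI (added after seeing the data). Without cells over 3 times the median UMIs, 414 genes were called in rich cells, 0 genes and 0 members over all kept cells, and 6 genes and 2 members outside the rich class. Outside the rich class, 19 genes and 2 members were called without the filter, and 2 genes without the 8 wells around each rich cell (added after seeing the data). *Acta2* alone against none gave 2 calls at 4000 UMIs or more and 1 without the filter. The share of *Acta2*-alone cells ran from -2.25 to 9.66 points when 1 mouse was left out, with -0.87 without EC-KO mouse 1 and -2.25 without EC-WT mouse 1, and was 17.5 points after thinning. *Mustn1* over all kept cells turned to -0.17 without the deepest cells. Outside the rich class, *Mylk* ran from -0.32 (without EC-WT mouse 2) to 0.93 and was -0.17 for the mice on 1 flow cell. *Smtn* ran from -0.36 (without EC-KO mouse 2) to 0.49, was -0.07 without EC-WT mouse 1, -0.20 without the deepest cells and -0.070 without 1-read values. The cause of these turns was not tested.

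Mice share only a number in the labels. With the mouse number as a replicate block, 8 genes and 4 members were called over all kept cells (*Mylk* 1.93, *Cnn1* 2.64 and *Itga8* 3.18 no longer passing) and 0 outside the rich class, with the share of rich cells at 2.84 and of *Acta2*-alone cells at 3.71 points. The deviations of same-numbered mice from their group means had a weak correlation (r -0.12 over 1912 genes). With 2 mice a group both pairs must give the same r, so it cannot show which mice belong together. The crossed pairing, added after seeing the data, gave 26 genes and, outside the rich class, 6 genes and 2 members.

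The size of the class of *Acta2* alone moved with depth, in different directions: thinning took it from 32, 11, 7 and 13 cells to 23, 39, 8 and 9 in EC-KO mouse 1, EC-KO mouse 2, EC-WT mouse 1 and EC-WT mouse 2. With 2 mice a group, permutation tests cannot fall below P=0.33, and 1 or 2 deep cells can set a mouse's level.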
